A study of Mus musculus with 29 samples.

Results

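Gfi1-dependent Atoh1 sites were defined as places in the mouse genome where FLAG-tagged Atoh1 gave a peak in both lines that carried Gfi1 with Atoh1, and in neither line that carried Atoh1 without Gfi1. Around each peak summit of 9 lists a window of 300 bp was laid, and windows with 1 bp or more in common became a single site. This gave 78408 sites, of which 44363 had a peak in at least 1 of the 4 Atoh1 lists. The required pattern was a peak in iG+A and in iGPA and none in iAtoh1 and in iP+A. It was met by 3001 sites, or 6.76% of the sites with any Atoh1 peak. The members were thus chosen by the presence and absence of Atoh1 peaks in these 4 lists, so the presence of peaks in iG+A and iGPA is not a result.

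In ChIP-seq, DNA bound by a protein is pulled down with an antibody and sequenced, and its peaks are the places the protein occupies. All lines were mouse embryonic stem cells of the parental line A2loxCre with a doxycycline-inducible cassette that ended in the fluorescent reporter mVenus. The cassette held Atoh1 alone (iAtoh1), Gfi1 and Atoh1 (iG+A), Pou4f3 and Atoh1 (iP+A), all 3 factors (iGPA), Pou4f3 alone (iPou4f3) or Gfi1 and Pou4f3 (iG+P). The cells were grown as embryoid bodies, aggregates of differentiating stem cells, to day 6, with doxycycline (2 µg/ml) over the last 48 h. Antibodies against FLAG and MYC precipitated the tagged Atoh1 and Pou4f3, while Gfi1 carried no tag and was precipitated directly. Each list was called on merged libraries, 2 per ChIP and 1 for Gfi1, so the values have no replicate error. Gfi1 was precipitated only in iGPA, and no library without doxycycline was used here. The lines were derived from picked colonies, and a difference between lines cannot be told apart from a difference between those clones.

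Atoh1 is a basic helix-loop-helix factor that binds E-boxes, the sequence CANNTG, together with E proteins, and is needed for inner ear hair cells and for several classes of neurons. Gfi1 is a zinc finger repressor that recognises sites with the core AATC, recruits histone-modifying complexes and is required for hair cell survival and for blood cell development. Pou4f3 is a POU homeodomain factor of maturing hair cells that binds AT-rich sites. A factor can bear on the binding of another by occupying the same DNA or by acting elsewhere, and the former would be seen here as a peak of both.

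The DNA of 6 members is shown, 1 set for each kind of site described later. Each line gives the plus strand of 120 bases centred on the iGPA Atoh1 summit in the mouse build mm9, with E-boxes CANNTG in capitals where the central bases are GC, GA, TC or TA, and in the Oxr1 sequence also a full Gfi1 site pattern. The first pair ranked highest by the lower of their peak height percentiles in the iG+A and iGPA lists. The next 3 carried a Gfi1 peak, and the last lay near a start in a repeated sequence.
Gpr142 site (chr11:114669064-114669183): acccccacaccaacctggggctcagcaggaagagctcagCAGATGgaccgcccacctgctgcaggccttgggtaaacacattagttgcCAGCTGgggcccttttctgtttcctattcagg
Hdac11 site (chr6:91106191-91106310): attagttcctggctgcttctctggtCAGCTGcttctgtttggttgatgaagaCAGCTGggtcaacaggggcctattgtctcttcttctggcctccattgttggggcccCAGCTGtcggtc
Exoc4 site (chr6:33783041-33783160): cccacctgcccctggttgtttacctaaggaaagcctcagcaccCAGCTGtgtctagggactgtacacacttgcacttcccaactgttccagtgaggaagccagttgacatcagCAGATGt
Copz1 site (chr15:103103113-103103232): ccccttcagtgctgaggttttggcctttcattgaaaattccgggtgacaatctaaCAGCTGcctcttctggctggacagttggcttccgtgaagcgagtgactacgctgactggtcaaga
Oxr1 site (chr15:41347310-41347429): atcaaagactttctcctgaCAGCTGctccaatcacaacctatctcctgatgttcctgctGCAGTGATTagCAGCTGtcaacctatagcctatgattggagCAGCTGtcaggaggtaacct
4930481A15Rik site (chr19:5407414-5407533): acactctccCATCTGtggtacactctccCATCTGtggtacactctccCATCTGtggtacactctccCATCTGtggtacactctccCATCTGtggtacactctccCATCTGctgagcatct

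The number of Gfi1-dependent sites, and its ratio to the reverse pattern, depended on how the lists were cut. Sites with the reverse pattern, in iAtoh1 and iP+A and in neither line with Gfi1, numbered 1151, or 2.59% of the sites with any Atoh1 peak, so members were 2.61 times as many. The iG+A and iGPA lists held 20504 and 26231 peaks, and the iAtoh1 and iP+A lists 15568 and 18949. When each Atoh1 list was limited to its 15568 peaks of highest −log10 p, 1631 sites had the member pattern and 1436 the reverse one, a ratio of 1.14. The ratio was 3.38 with all lists held to a −log10 p of at least 10 (1266 and 375 sites) and 3.72 with windows of 1000 bp (2704 and 727). Of the 3001 members, 1500 kept the pattern at equal length, and the other 1501 no longer had a peak in iG+A or in iGPA. At a −log10 p of at least 10, 435 members (14.5%) kept it, so most of the 1266 sites there were not among the 3001. Values given below at this cut are those of the 1266 sites. Pairs of lists that share no common factor beyond Atoh1 gave 1056 sites for iAtoh1 with iG+A, 935 for iAtoh1 with iGPA and 818 for iG+A with iP+A, and the pattern that follows Pou4f3, in iP+A and iGPA only, gave 3542.

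**Figure D1:**
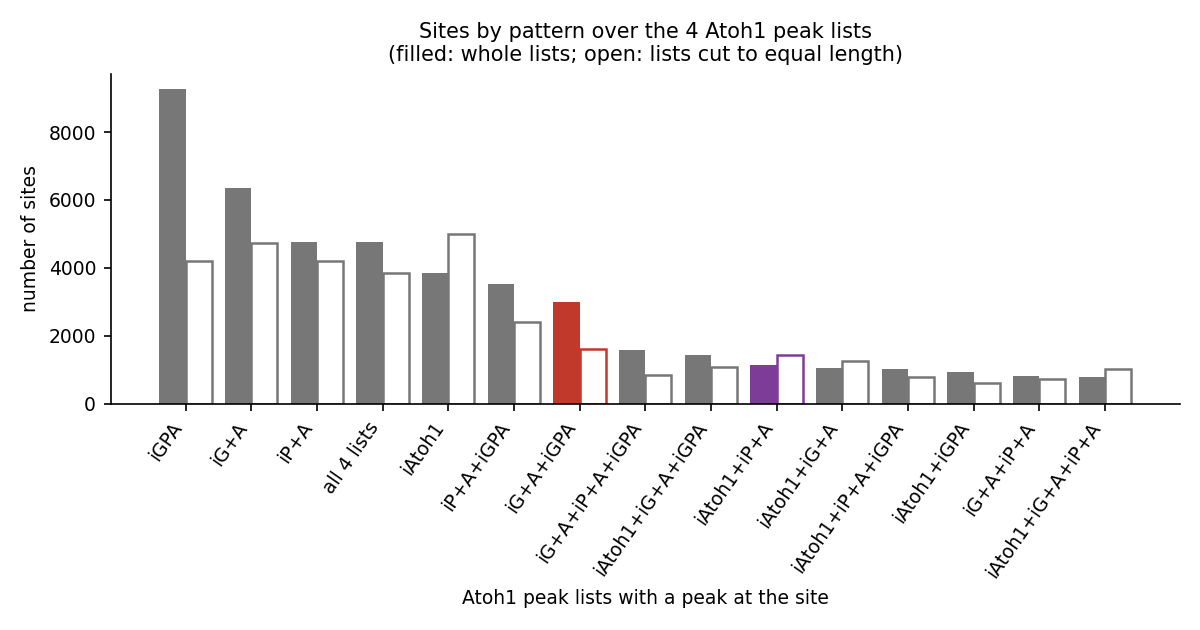
Number of sites (vertical axis) for each combination of Atoh1 peak lists (horizontal axis), with filled bars for the whole lists and open bars for lists of equal length. The member pattern (red) fell from 3001 to 1631 sites while the reverse pattern (purple) went from 1151 to 1436.

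The peaks of the members were of ordinary height for their lists. Fold enrichment, which is how many times the signal at the summit exceeds the background around it in the authors' peak calls, had a median of 3.20 in iG+A (quartiles 2.94 and 3.74) and 3.45 in iGPA (quartiles 3.08 and 4.18), which are the medians of all kept peaks in these lists. In fragments at the summit, which were derived from the fold enrichment and the −log10 p, the medians were 23 in iG+A and 28 in iGPA. Sites found in all 4 Atoh1 lists, of which there were 4767, had median folds of 4.27 and 5.66. These values are a description, since the rule chose the members from the same peaks. Among members, the weakest iG+A peak had a −log10 p of 4.30 and the weakest iGPA peak 3.92. Just outside the rule, the weakest peaks that excluded a site had a −log10 p of 4.07 in iAtoh1 and 4.18 in iP+A.

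**Figure D2:**
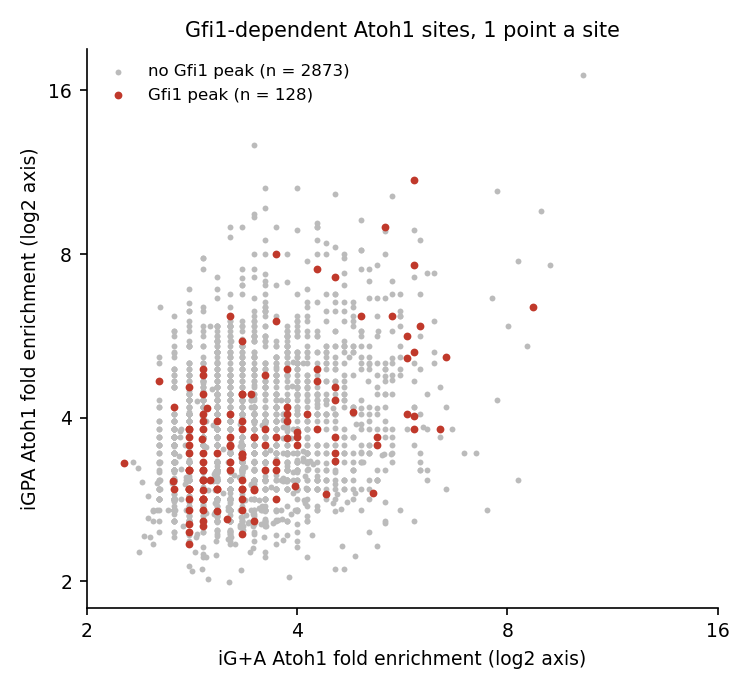
Fold enrichment of the 3001 Gfi1-dependent sites in iG+A (horizontal, log2 axis) and iGPA (vertical, log2 axis), 1 point a site, with the 128 sites that had a Gfi1 peak in red. The medians are 3.20 and 3.45, and the red points are spread among the grey ones.

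Part of the members had a called Atoh1 peak in the 2 lists that lacked a kept one. The usual local background was 6.49 fragments in iG+A and 7.13 in iGPA, against 7.19 in iAtoh1 and 8.30 in iP+A. At these backgrounds the lowest fold that was called was 2.53 in iG+A, 2.46 in iGPA, 2.44 in iAtoh1 and 2.37 in iP+A. In 380 members (12.7%, 95% exact interval 11.5 to 13.9) iAtoh1 or iP+A had a called peak that the authors had left out of the summit list, and in 149 (4.97%) both had one. The share with either was 8.64% at the other iGPA Atoh1 sites, 4.02 percentage points lower (2.82 to 5.31), and 6.33% at sites in the iGPA list only. A kept iAtoh1 or iP+A summit lay within 1000 bp, outside the joined windows, at 381 members (12.7%), against 11.8% of sites in the iGPA list only, a difference of 0.878 points (−0.450 to 2.27).

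Members were ranked by the lower of their fold percentiles in the iG+A and iGPA lists. The strongest member lay between genes, 8886 bp from the start of Gpr142, which encodes a G protein-coupled receptor (chr11:114668946-114669273). It had 76 fragments in iG+A, a fold of 10.3, and 138 in iGPA, a fold of 17.1. The next lay 408 bp from the start of Hdac11, a histone deacetylase gene (chr6:91106080-91106404), with folds of 7.74 and 10.5, and was the only one of the 8 strongest with a Pou4f3 peak in iGPA. A kept iAtoh1 or iP+A summit lay 632 bp from it. An intronic site in Car5a, a mitochondrial carbonic anhydrase gene, had folds of 8.94 and 9.60 (chr8:124443607-124443920). An intronic site in 1600021P15Rik had folds of 6.01 and 8.49 (chr16:28858306-28858618), and an intronic site in Exoc4, which encodes an exocyst subunit, had 5.87 and 11 (chr6:33782911-33783250). An intron of Ttyh2 held a site with folds of 5.87 and 8.86 (chr11:114553186-114553508). The last pair of the 8 lay 52552 bp from the start of Tmem64 with folds of 8.28 and 7.75, and in an intron of 1110038D17Rik with folds of 9.21 and 7.63. Of these 8 sites, the Exoc4 site alone had a Gfi1 peak, and none had a called iAtoh1 or iP+A peak.

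Few Gfi1-dependent Atoh1 sites had a Gfi1 peak, as was so for iGPA Atoh1 sites in general. A Gfi1 peak in iGPA was present at 128 of 3001 members, or 4.27% (95% exact interval 3.57 to 5.05), beside a background of 5.30% over all 25541 sites with an iGPA Atoh1 peak. This was 1.17 percentage points below the iGPA Atoh1 sites that were not members (95% Newcombe interval 0.335 to 1.90). Intervals here and below cover counting error only. The share was 10.5% (9.67 to 11.4) at sites of all 4 Atoh1 lists, 6.27 points above the members (5.12 to 7.39). At the 3542 Pou4f3-dependent sites it was 7.91%, 3.64 points above the members (2.49 to 4.79). It was 1.64% at the 9257 sites found in the iGPA list only, 2.62 points below the members (1.90 to 3.44), and 2.00% at sites of the reverse pattern. Members lay at 4.28% of the 2991 Gfi1 sites. The Gfi1 list was short, with 3012 kept peaks from 1 library, and its lowest fold called at the usual background was 3.30, higher than in any Atoh1 list. Lower folds, down to 2.50 at members, were called where the background was higher, so weaker Gfi1 at the usual background was not detectable.

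**Figure D3:**
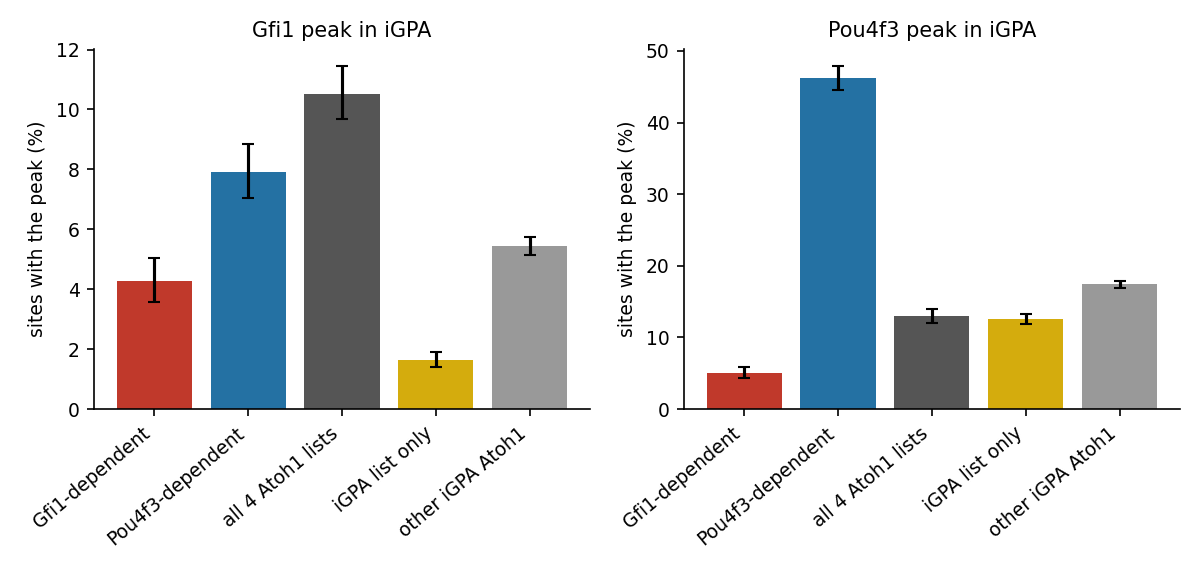
Share of sites with a Gfi1 peak (left) and a Pou4f3 peak (right) in iGPA, in percent, for 5 classes of Atoh1 sites, with 95% exact intervals as error bars. Gfi1-dependent sites had Gfi1 at 4.27% and Pou4f3 at 5.03%, and sites of all 4 Atoh1 lists had 10.5% and 13%.

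The share with Gfi1 did not rise with the height of the Atoh1 peak at the members, as it did elsewhere. All iGPA Atoh1 sites were split by their −log10 p into 4 bands at its quartiles of 6.83, 9.19 and 15.3. From the lowest to the highest band, members had a Gfi1 peak at 4.44%, 3.21%, 4.88% and 4.61% of sites. Other iGPA Atoh1 sites had one at 2.45%, 3.07%, 4.91% and 10.6%. In the highest band the members were 6.01 points lower (3.78 to 7.68), and in the lowest band 1.99 points higher (0.588 to 3.89), while the intervals of the difference in the 2 middle bands included 0. Against Pou4f3-dependent sites the members were 8.85 points lower in the highest band (6.08 to 11.3). In each lower band the interval of that difference included 0. Against sites in the iGPA list only, members were 0.843 points higher in the highest band (−1.67 to 3.34) and 3.23 points higher in the lowest (1.84 to 5.12). The highest band has no upper limit. The −log10 p reached 124 at members and 1522 at the other iGPA Atoh1 sites, and height within the band was not matched. Limiting the Gfi1 list to its upper part by −log10 p left the members at 2.06%, and with all lists held to a −log10 p of at least 10 the difference from other iGPA sites was −0.204 points (−1.19 to 1.03).

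**Figure D4:**
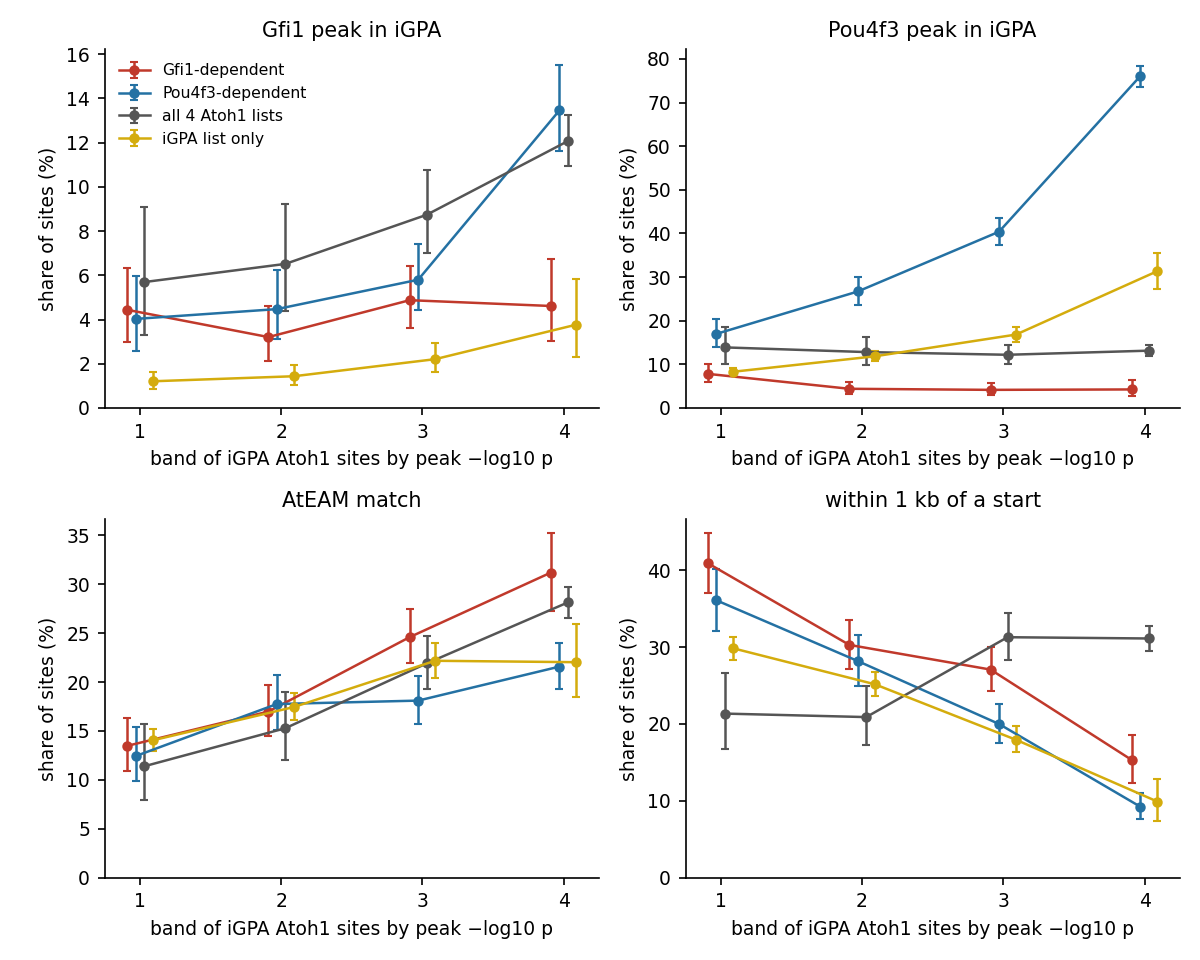
Shares of sites, in percent with 95% exact intervals, by band of the −log10 p of the iGPA Atoh1 peak (1 lowest, 4 highest) for 4 measures and 4 classes. At Gfi1-dependent sites (red) the share with Gfi1 stayed between 3.21% and 4.88%, the share with the AtEAM motif rose from 13.5% to 31.2% and the share near a start fell from 40.9% to 15.3%.

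The 128 members with a Gfi1 peak differed from the other 2873 in sequence and position. They lay within 1 kb of an annotated transcription start at 53.9% (44.9 to 62.8), 26.2 points more often than members without Gfi1 (17.4 to 34.7). They had a Pou4f3 peak in at least 1 of the 4 Pou4f3 lists at 49.2% against 19.4%, a difference of 29.8 points (21.2 to 38.5), beside a background of 33.7% over all iGPA Atoh1 sites. The Atoh1 motif AtEAM, an extended E-box, was found at 9.38% of them and at 21.8% of the others, 12.4 points lower (5.91 to 16.6). The Gfi1 patterns AATCACTGC and AATCACAGC, searched on both strands, were present at 5 of the 128 and at 4 of the 2873, a difference of 3.77 points (1.53 to 8.68). Gfi1 and iGPA Atoh1 summits lay a median of 54 bp apart (upper quartile 152.5 bp, highest 937 bp), against 48 bp at the 1225 other iGPA Atoh1 sites with Gfi1. The median Gfi1 fold was 4.40 in both groups. Windows joined in a chain make a wider site, and the part of width in the share with Pou4f3 was not tested.

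Among members with a Gfi1 peak, the Exoc4 site had 20 Gfi1 fragments at its summit, a fold of 4.62. A site 169 bp from the start of Copz1, a coat protein gene of Golgi vesicles, had 24 fragments and a fold of 5.50, with Atoh1 folds of 5.87 in iG+A and 7.63 in iGPA (chr15:103102992-103103620). An intronic site in Oxr1, an oxidation resistance gene, had 74 Gfi1 fragments and a fold of 16.5, with Atoh1 folds of 5.34 and 8.98 (chr15:41347217-41347519). It was the only one of the 6 highest with a full Gfi1 pattern, which lies between E-boxes in the sequence shown above. A site 462546 bp from the start of Tbl1xr1 had 78 Gfi1 fragments on a high background, a fold of 5.45, with left-out called peaks in both iAtoh1 and iP+A. Sites in an intron of Gm20388, 53858 bp from the start of Galnt2, and in an intron of 2900079G21Rik had Gfi1 folds of 4.40 and 3.96.

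Pou4f3 was less frequent at members than at other iGPA Atoh1 sites, by an amount that depended on the class and list compared. A Pou4f3 peak in iGPA was present at 5.03% of members (4.28 to 5.88), beside a background of 16.0% over all iGPA Atoh1 sites. The members were 12.4 points below the other iGPA Atoh1 sites (11.4 to 13.3), 7.93 points below sites of all 4 lists (6.68 to 9.16) and 41.2 points below Pou4f3-dependent sites (39.3 to 43.0). In the lowest band of iGPA peaks, members were 1.88 points below the other iGPA Atoh1 sites (−0.557 to 3.87), and in the highest 23.1 points (20.8 to 24.9). Sites of the reverse pattern, which have no iGPA Atoh1 peak, had Pou4f3 in iGPA at 4.43%. In the other Pou4f3 lists the members had a peak at 10.2% for iPou4f3, 12.8% for iG+P and 6.43% for iP+A, beside backgrounds of 16.3%, 20.8% and 16.7%. Sites in the iGPA Atoh1 list only were closer to the members, at 11.7%, 14.9% and 9.30%. The members were 1.46 (0.156 to 2.69), 2.17 (0.736 to 3.53) and 2.87 points (1.77 to 3.89) below them. Atoh1 was not in the cassette of iPou4f3 and iG+P. The rule left out every site with Atoh1 in iP+A and required Atoh1 in iG+A, a line without Pou4f3, and both bear on the members' shares. Sites found in the iGPA Atoh1 list only, which lack Atoh1 in iP+A and also in iG+A, had Pou4f3 in iGPA at 12.6%. Pou4f3-dependent sites were chosen by their Atoh1 peaks in the lines with Pou4f3. The part of these rules in the differences was not tested. In all, 2315 members (77.1%, 75.6 to 78.6) had no peak of Gfi1 or Pou4f3 in any list, beside a background of 64.4%. Sites in the iGPA list only had none at 75.4%, and the difference of 1.74 points from members had an interval that included 0 (−0.0255 to 3.45).

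The sequence under the members was that of Atoh1 sites. At least 1 E-box with the central bases GC, GA or TA (both strands, so that TC counts as GA) lay within 250 bp centred on the summit at 76.7% (75.2 to 78.2), beside a background of 75.9% of all iGPA Atoh1 sites and 31.8% of windows 1000 bp to each side of the members. The AtEAM motif was present at 21.2% (19.8 to 22.7), beside a background of 19.1%, and at 1.80% of the flanking windows. The share was 2.40 points above that of the other iGPA Atoh1 sites (0.886 to 3.98) and 3.51 points below that of sites of all 4 lists (1.58 to 5.40), the latter turning to 5.69 points above when all called peaks were used. Its share rose with the height of the iGPA peak, from 13.5% in the lowest band to 31.2% in the highest, and in each of the 4 bands it was higher than at sites of all 4 lists (11.4% in the lowest and 28.1% in the highest), opposite in sign to the pooled difference, with intervals that included 0. Of the sites of all 4 lists 65.3% were in the highest band, and of the members 18.1%. Sites of the reverse pattern had AtEAM at 9.47%, 11.8 points below the members (9.44 to 13.9), and an E-box of these forms at 52.8%. Around the summit, 60.1% of members had such an E-box centred within 30 bp, against 71.9% of sites of all 4 lists and 29.7% of reverse sites.

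**Figure D5:**
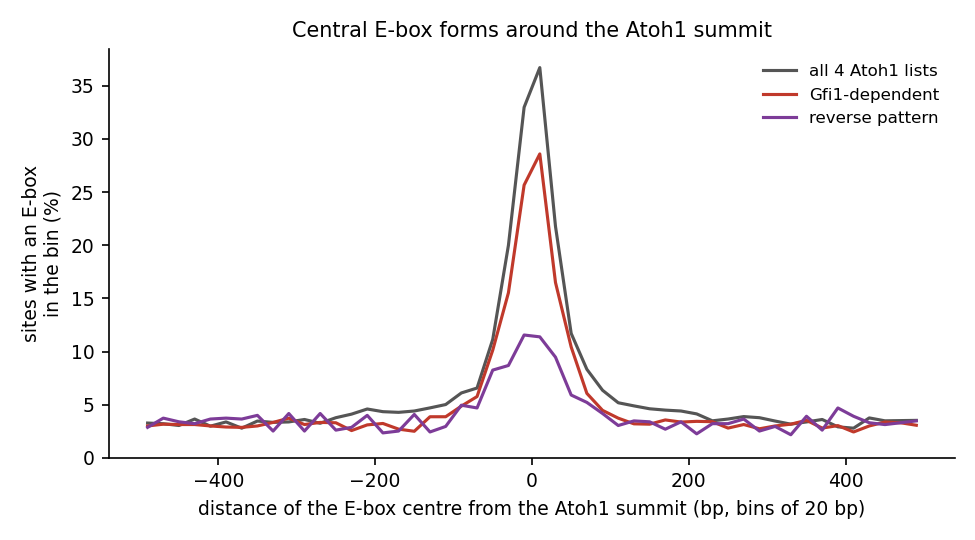
Share of sites, in percent, with an E-box of central bases GC, GA or TA (either strand) centred in each 20 bp bin (vertical axis) by distance from the Atoh1 summit in bp (horizontal axis). The bin just right of the summit held an E-box at 28.6% of Gfi1-dependent sites, 36.7% of sites of all 4 Atoh1 lists and 11.4% of sites of the reverse pattern.

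The forms of the E-box differed in part from those at sites of all 4 lists. CAGCTG was present at 51.1% of members (49.3 to 52.9), 11.6 points below sites of all 4 lists (9.34 to 13.8). CACCTG, the form with reverse complement CAGGTG, was present at 31.1% of members and at 24.1% of sites of all 4 lists, 7.03 points higher (4.98 to 9.09), with 18.9% in the flanks of the members. Sites in the iGPA list only had CACCTG at 31.3%, close to the members, and CAGCTG at 44.6%. CAGATG was present at 43.7%, 2.93 points below sites of all 4 lists (0.653 to 5.19). Against all other iGPA Atoh1 sites the difference for CAGCTG was 1.74 points (−0.160 to 3.65) and for CACCTG 3.69 points (1.96 to 5.47). The height of the peaks differed between these classes and was not matched here.

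No enrichment of Gfi1 site letters was seen at the members. The 2 Gfi1 patterns were present at 9 members, or 0.300% (0.137 to 0.569), beside a background of 0.345% of iGPA Atoh1 sites and 0.417% in the flanks of the members. The core AATC occurred a mean of 0.964 times per 250 bp at members and 1.07 times at other iGPA Atoh1 sites. The Pou4f pattern ATAATTAAT with at most 1 mismatch was present at 2.87% of members (2.30 to 3.53), beside a background of 9.29% and 7.61% in the flanks of the members. Sites of all 4 lists were alike, with 3.46% and 8.28% in their flanks. The members differed from them by −0.596 points, with an interval that included 0 (−1.37 to 0.222). At Pou4f3-dependent sites it was present at 24.6%, 21.7 points higher (20.2 to 23.3). Median GC content was 53.6% at members and 46.2% in their flanks. A missing match says only that these letters were not in the window.

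Base composition followed the lists. Sites found in a single Atoh1 list had a median GC content of 45.2% for iAtoh1, 47.2% for iP+A, 50.4% for iG+A and 51.6% for iGPA. Sites of the reverse pattern had 44.4%, against 53.6% at members. The part of base composition in the number of members was not tested.

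How often members lay near starts, against other Atoh1 sites, depended on the class compared and on peak height. Within 1 kb of an annotated start lay 28.9% of members (27.2 to 30.5), beside a background of 26.6% of iGPA Atoh1 sites, 20.6% of Pou4f3-dependent sites, 11.8% of sites of the reverse pattern and 29.6% of sites of all 4 lists. Members were 8.30 points above Pou4f3-dependent sites (6.21 to 10.4) and 17.0 points above the reverse pattern (14.5 to 19.4). The difference from sites of all 4 lists was −0.763 points (−2.83 to 1.32), and from the other iGPA Atoh1 sites 2.51 points (0.818 to 4.26), which turned to −0.597 at a −log10 p of at least 10 and −1.29 at equal list length. With all called peaks the former was 5.66 points. In the lowest band of iGPA peaks, however, 40.9% of members and 21.4% of sites of all 4 lists were near a start, 19.5 points higher (13.2 to 25.3), and in the highest band 15.3% and 31.1%, 15.8 points lower (12.2 to 19). The median distance to a start was 6968 bp. Summits lay in introns at 43.4%, between genes at 42.7%, in untranslated or non-coding exons at 9.70% and in coding exons at 4.17%.

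The 6 highest members within 1 kb of a start included the Hdac11 and Copz1 sites. The site 600 bp from the start of 4930481A15Rik lay in a repeat with a unit of 19 bp in which each unit printed above holds a CATCTG, and had 43 fragments in iG+A and 58 in iGPA (chr19:5407324-5407671). A coding exon of Gm3238 held a site with 40 and 54 fragments (chr10:77233769-77234077). An intron of Ccdc162 held one with 37 and 60 (chr10:41272641-41272949), and an intron of Cyb5r3, which encodes a cytochrome b5 reductase, one with 41 and 49 (chr15:83000034-83000338). Short tandem repeats, with units of 1 to 12 bp, underlay 0.600% of members, beside a background of 0.685%.

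Members were scattered over many genes. Assigned to the nearest start, the 2792 members whose gene name stood at 1 locus fell to 2451 genes, or 7.30% of the 33581 such genes, and 2183 of these had 1 member. The 4 genes with 5 members each were Camta1, which encodes a calmodulin-binding transcription activator, Gm10479, Gm9758 and Prl2c3, a placental prolactin family gene. Prl2c3 has close copies, and although the authors dropped poorly mapped reads, sharing of reads between such copies was not tested. A further 12 genes had 4, among them Cited2, a transcriptional co-regulator, and Olig3, a bHLH factor of neural progenitors, both picked for mention after the values were seen. The share of members whose gene also held a site of all 4 Atoh1 lists was 31.0% (29.3 to 32.7), against 31.6% for Pou4f3-dependent sites, 28.1% for sites in the iGPA list only and 48.3% for sites of the reverse pattern. Of all genes, 10.5% held a site of all 4 lists and 7.86% a Pou4f3-dependent site. No member lay in Atoh1, Pou4f3 or Gfi1, the genes whose coding sequences the cassettes carry. Exons of Atoh1 held a kept peak in every list of a line with the Atoh1 cassette and in neither list of a line without it, while exons of Gfi1 and of Pou4f3 held peaks also in lines without their cassette. On the X chromosome 3.25% of Atoh1 sites were members (2.11 to 4.76), and on the autosomes 4.52% (chromosome 14) to 8.38% (chromosome 19).

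Of 56 hair cell genes, 9 were the nearest gene of a member, 16.1% (7.62 to 28.3), beside the 7.30% of all genes. A site of all 4 lists was present at 11 (beside 10.5% of all genes) and a Pou4f3-dependent site at 12 (beside 7.86%). These lists were chosen with earlier results of the data known, and genes with wide surroundings gather more sites, so nothing particular to the list follows. The highest of these sites lay in an intron of Jag2, a Notch ligand gene of hair cells (chr12:114160775-114161091), with 33 fragments in iG+A, a fold of 4.54, and 54 in iGPA, a fold of 6.77, and an AtEAM motif. A site 83146 bp from Tmc1, the gene of the mechanotransduction channel, had folds of 4.67 and 5.41 (chr19:21111627-21111987). Nhlh1, a bHLH gene, had a site 3904 bp from its start with folds of 3.87 and 5.29 (chr1:173991458-173991763). Rfx3, a ciliary gene regulator, had one 774 bp from its start with folds of 4.54 and 3.33 and the only Gfi1 peak among the sites of this list (chr19:28084356-28084713). Sites at Espn, the gene of an actin bundler of stereocilia, and at Cdh23, the gene of a tip link cadherin, lay 98 and 465 bp from the start with iGPA folds of 4.31 and 3.57. Ikzf2, a regulator of outer hair cells, had 2 members with iGPA folds of 3.69 and 4.31, and Ctbp2, whose isoform Ribeye builds synaptic ribbons, had 2 with 3.20 and 3.81.

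Among 27 Notch pathway genes, 4 had a member (14.8%, beside 7.30% of all genes) and 15 a site of all 4 lists (beside 10.5%). Dll1, a Notch ligand gene, had a member 172 bp from its start with folds of 4.41 in iG+A and 4.43 in iGPA (chr17:15513851-15514157). Maml3, a co-activator gene of Notch, had 2, of which the higher lay in a coding exon with folds of 4.01 and 4.55. Notch2, a receptor gene, had an intronic member with folds of 2.67 and 4.68, and Jag2 is described above. Of 7 bHLH partners, 2 had a member (28.6%, 3.67 to 71.0, beside 7.30% of all genes). Tcf12, an E protein gene, had an intronic member with folds of 4.41 and 4.68, and Id2, an inhibitor of E proteins, had 2 distal members with iGPA folds of 5.17 and 2.95.

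In 44 neuronal genes there were 5 with a member (11.4%, beside 7.30% of all genes), against 10 with a site of all 4 lists (beside 10.5%) and 14 with a Pou4f3-dependent site (beside 7.86%). Ebf2, a factor of neuronal differentiation, had the highest, 272 bp from its start, with folds of 5.87 and 5.29 and a Gfi1 peak (chr14:67852251-67852582). Elavl2, an RNA-binding protein gene, Lhx9, a LIM homeodomain gene, and Snap25, a synaptic SNARE gene, had members within 1 kb of a start with iGPA folds of 3.32, 3.81 and 2.83. Nhlh1 is also on this list.

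Inner ear formation genes had a member at 5 of 37 (13.5%, beside 7.30% of all genes). The member of Chd7, a chromatin remodeller gene, lay 430 bp from its start with an iGPA fold of 4.18. Fgf10, a growth factor gene, had one at 39961 bp with 4.18, and Fgfr2, its receptor gene, one at 8329 bp with 3.32. Spry1, an inhibitor of growth factor signalling, had one at 32271 bp with 3.08. Of 28 genes of Gfi1 partners and blood regulators, 4 had a member (14.3%, beside the same 7.30%). Lmo2, a haematopoietic adaptor gene, had one at 44 bp with an iGPA fold of 3.45, Runx1, a blood transcription factor gene, had one at 180748 bp with 2.71, and the cytokine signalling inhibitors Socs1 and Socs3 had one each with 3.20. None of these 4 had a Gfi1 peak. None of 39 Hox genes had a member, which allows a share of up to 9.03% by the exact interval and so does not set them apart from the 7.30%.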

How the data were processed

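ChIP-seq of Atoh1, Pou4f3 and Gfi1 was measured in 17 ChIP and 12 input libraries from 6 lines, grouped by the sample titles. By the study's methods and the submitters' processing notes, the authors used Trimmomatic, Bowtie 2 (build mm9) and Picard to trim, align and deduplicate reads, dropped poorly mapped and blacklisted ones, and ran MACS 2 on the merged libraries of each ChIP against the merged inputs. The deposited peak files give, per the peak caller, a fold enrichment (a ratio), a −log10 p and a −log10 q, the last of which was not used. The deposited summit lists name the kept peaks (14.1% to 35.5% of called peaks were left out, by a filter not given in the sources used here) and hold a signal column of undefined meaning, which no result uses. The authors' merging leaves no values per replicate, so no p-value was computed, and sites are not replicates.

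Total depth is unknown. Fragments at the summit and the local background were derived from the fold and the −log10 p, as the fragment number that matched both within 0.001, which worked for 98.5% to 99.9% of peaks. Patterns were searched on both strands in 250 bp around the iGPA Atoh1 summit in the genome NCBIM37, the assembly of mm9. Sites without an iGPA Atoh1 peak, such as those of the reverse pattern, were read at another Atoh1 summit. This was the first present in the order iG+A, iP+A and iAtoh1. Starts came from all transcripts of the GENCODE annotation of that assembly. A flank was the window 1000 bp to each side. Shares have exact Clopper-Pearson and differences Newcombe 95% intervals, which cover counting error only. Named sites were the 8 members with the highest lower percentile of fold in iG+A and iGPA, the 6 highest with Gfi1, the 6 highest within 1 kb of a start, those of listed genes and the genes with the most members, leaving out names at several loci, a choice made after those names were seen. Some sites that this rule names are not reported here. Repeats were summits where at least 80% of 100 bp matched the base 1 unit (1 to 12 bp) further on. The members and gene lists were chosen with earlier results of these data known. Alternatives covered windows, joining, peak and list thresholds, chromosomes, repeats, patterns and starts. The calculations were tested on simulated data. Python 3.11.15, numpy 2.4.6, pandas 2.3.3, scipy 1.17.1 and pysam 0.24.0 were used.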

Additional observations from a re-analysis of the deposited data

Results flagged for a closer look

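Peaks that the authors called and did not keep in the summit lists, which enter the comparisons only under alternative settings, were present in iAtoh1 or iP+A at 12.7% of the Gfi1-dependent sites (380 of 3001), against 8.64% of the other iGPA Atoh1 sites. For the Pou4f3-dependent sites the like share, in iAtoh1 or iG+A, was 7.79%, and for the reverse pattern, in iG+A or iGPA, it was 33.8%. The 313 such iAtoh1 peaks at members had a median fold of 2.81 and the 283 such iP+A peaks 2.63. Their medians were 25 and 28 fragments, with a −log10 p of 6.21 and 6.02. The members' own peaks had medians of 23 fragments in iG+A and 28 in iGPA, with a −log10 p of 6.99 and 9.19. The reason these peaks were left out was not tested.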

How the results depend on the processing

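No paired analysis was possible because each peak list comes from merged libraries, so neither a replicate block nor leaving out a replicate could be run. Over 13 results and 132 recomputed values, 97 kept their direction and side of the interval, or stayed within the limit for a number or share, and the others follow, in percentage points where a difference is given. The number of sites with the member pattern moved to 1266 at a −log10 p of at least 10 (375 of the reverse pattern) and to 1631 at equal length of the Atoh1 lists. Of the 3001 members, 435 kept the pattern at the former setting and 1500 at the latter. Under the other settings the number of sites was 2621 to 3045. The share with Gfi1 moved to 3.11% with windows of 100 bp, 5.07% with 1000 bp and 2.06% with the upper part of the Gfi1 list, and its difference from other iGPA Atoh1 sites no longer excluded 0 at a −log10 p of at least 10 (−0.204) and with the upper part of the Gfi1 list (−0.597). The share with Pou4f3 moved to 3.18% and 7.47% with windows of 100 and 1000 bp, 1.11% at a −log10 p of at least 10, 6.63% with all called peaks and 4.27% where no called iAtoh1 or iP+A peak was allowed. The AtEAM share moved to 26.3% at a −log10 p of at least 10, 25.3% at equal length, 23.4% with no called iAtoh1 or iP+A peak, 17.9% in a 100 bp window and 76.7% for the E-box forms. Its difference from other iGPA sites no longer excluded 0 at a −log10 p of at least 10 (2.48) and for the E-box forms (0.907). Its difference from sites of all 4 lists reversed to 5.69 with all called peaks and no longer excluded 0 at a −log10 p of at least 10 (−2.59), at equal length (−1.26), with no called iAtoh1 or iP+A peak (−1.31) and with 1000 bp windows (−0.860). The share near a start moved to 23.8% at a −log10 p of at least 10 and at equal length, 44.7% within 5 kb and 27.2% for protein-coding starts. Its difference from other iGPA sites changed sign at a −log10 p of at least 10 (−0.597) and at equal length (−1.29), with intervals that included 0. That difference also no longer excluded 0 with no called iAtoh1 or iP+A peak (1.47) and with 100 bp windows (0.518). The difference of the share near a start from sites of all 4 lists reversed to 5.66 with all called peaks, and excluded 0 at a −log10 p of at least 10 (−4.09) and at equal length (−6.94). The cause of these changes was not tested, except that equal length and the stricter −log10 p hold fewer peaks. Merged libraries without replicate values, unknown depth and 1 Gfi1 library limit every statement.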
